A study of Mus musculus with 9 samples.

Results

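The lysosomal genes examined here were a list of 43 chosen by function and spelled out by symbol, with 6 lysosomal membrane proteins, 9 proteases, 12 enzymes that degrade glycans, 7 enzymes and helper proteins of lipid breakdown, 7 subunits or partners of the proton pump and 2 transcription factors. The list was set with earlier results of these data known, so its shares beside those of all tested genes are descriptive. All 43 were found by symbol among the 27179 genes of the count table, and all 43 were among the 17344 genes that passed the filter on low counts. RNA was sequenced from the paraventricular nucleus of the hypothalamus (PVN), a nucleus that controls feeding, stress hormones and autonomic output. The tissue came from 9 male wild-type C57BL/6 mice, with 3 mice in each of 3 groups. Control mice ate a chow with 16% of its calories from fat. HFD mice ate a high-fat diet with 60% of its calories from fat for 12 weeks from 5 weeks of age. HFD+Mino mice ate the same high-fat diet and also drank minocycline, a tetracycline antibiotic that dampens microglial activation, dosed at 40 mg/kg/day through the final 6 weeks. No group received minocycline on the control chow, so the antibiotic was only seen on top of the fat diet, and every animal was a young adult male.

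Lysosomes are acidic organelles in which proteins, glycans and lipids delivered by endocytosis and autophagy are broken down. A proton pump, the V-ATPase, acidifies the lumen, soluble hydrolases do the digestion, and heavily glycosylated membrane proteins line the inner face of the membrane and carry out transport and fusion. The transcription factors TFEB and TFE3 bind an E-box motif in the promoters of many of these genes. In brain, microglia and neurons both depend on the pathway, and inherited loss of single hydrolases causes storage diseases of the nervous system.

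The smallest library was HFD replicate 1 with 17728590 counts and the largest Control replicate 1 with 42326213, and the 43 genes together took 1.28 to 1.46%, 1.19 to 1.33% and 1.07 to 1.36% of the counts in Control, HFD and HFD+Mino mice. The labelled nucleus was checked with Avp, Oxt, Crh, Trh, Sim1 and Otp. In Control replicate 1, Avp (vasopressin) was at 0.149 CPM (the count scaled to a library of common size), Oxt (oxytocin) at 0.770 and Otp at 0 counts, so the defining neurons were nearly absent from that library. Their summed level was 27.8 to 2563 CPM among Control mice, 2479 to 3726 among HFD mice and 3104 to 37726 among HFD+Mino mice, where replicate 2 had 31917 and replicate 1 the highest. Pmch, a marker of the neighbouring lateral hypothalamus, stood at 2560 CPM in Control replicate 2. Oligodendrocyte markers summed to 29217 CPM in Control replicate 1 and to at most 6886 in the other 8 libraries. Marker levels thus differed between libraries, Control replicate 1 went against its label, and values without it are given beside the calls. The share of counts in Rn45s, the precursor of ribosomal RNA, was 0.350 to 0.430% in HFD, against 0.0266 to 0.0438% in Control and 0.0450 to 0.113% in HFD+Mino, so the HFD mice stood apart in it as they did for Lamp1 and Ids. The mitochondrial genome took 4.68% of counts in HFD+Mino replicate 1, 6.21% in replicate 2 and 1.21 to 3.67% in the other 7 libraries. Leaving out Rn45s and the mitochondrial genome gave the same counts of calls. That step only drops those genes from the fit, so whether what set these shares apart also bore on other genes was not tested. In bulk tissue, fewer cells of a type and less RNA per cell cannot be told apart.

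The E-box sequences come first, because they are the feature of these genes known to bind TFEB and TFE3. RefSeq promoters (GRCm38.p6, the 250 nt before each start site) were matched for 37 of the 43 genes. CACGTG, which reads the same on both strands, was in 12 of the 37 (32.4%) and in 6.86% of the 27025 genes with a promoter. Those 27025 include genes that were not tested here, so this background is not matched for expression. The longer GTCACGTG, on either strand, was in 8 of the 37 (21.6%) against 2.11% of all genes, and TCACGTGA was in 5 (13.5%) against 0.907%. Both longer motifs contain CACGTG. A match of letters is a description and not a measured binding site. The stretches below show the promoter with the most E-boxes, those of 3 further genes that were lower in HFD than the average over the groups, and those of a pair that was higher, each 5′ to 3′ with CACGTG in capitals.
Lamp1, chr8:13159090-13159160, plus strand: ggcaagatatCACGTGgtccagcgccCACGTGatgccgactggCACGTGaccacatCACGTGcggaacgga
Mcoln1, chr8:3500438-3500489, plus strand: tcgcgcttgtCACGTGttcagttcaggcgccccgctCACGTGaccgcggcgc
Ctsa, chr2:164833751-164833772, plus strand: agcaaactgtCACGTGatgcag
Lgmn, chr12:102439126-102439151, minus strand: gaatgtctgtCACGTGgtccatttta
Naglu, chr11:101070011-101070036, plus strand: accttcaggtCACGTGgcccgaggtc
Gaa, chr11:119267813-119267838, plus strand: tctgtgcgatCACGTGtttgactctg

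Lamp1 carried 4 E-boxes, the farthest of which ended 56 nt before its start site. Mcoln1, Ctsd and Gla carried 2 each, and the other 8 carried 1. The stretches shown for Ctsa and Lgmn lie before internal start sites, downstream of the outermost start of each gene.

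**Figure D1:**
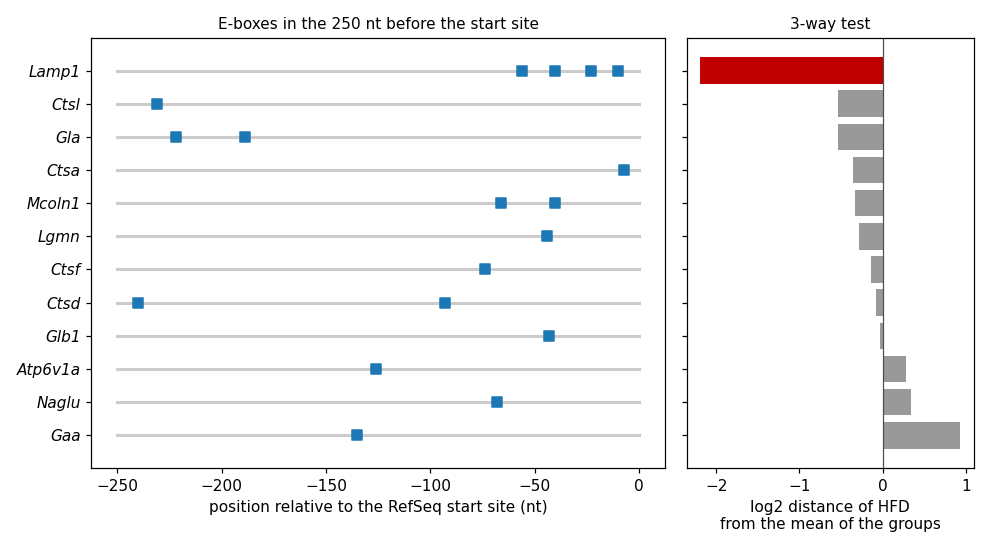
E-boxes (CACGTG, squares) in the 250 nt before the RefSeq start site of the 12 lysosomal genes that hold one, with position in nt on the horizontal axis, beside the distance of HFD for each gene, in log2 units from the average of the 3 groups (bars, the 3-way call in red). Lamp1 has 4 E-boxes and a distance of −2.20, while the distances of the other 11 lie on both sides of 0, up to 0.94 in Gaa.

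Of the 43 genes, 1 fell and 1 rose in HFD relative to the other groups. Lamp1, which encodes one of the most abundant glycoproteins of the lysosomal membrane, fell, and Ids, which encodes iduronate 2-sulfatase, rose. The measure was how far the HFD group lay, in log2 units, from the average of the 3 group values, called here the distance. A gene was called when the 3-way quasi-likelihood test of edgeR gave a false discovery rate (FDR) below 0.01 over all tested genes, with HFD the lowest or the highest group and at least 1.5-fold from that mean. HFD-lower calls made up 1.21% of all tested genes and HFD-higher calls 0.917%, against 2.33% of the 43 genes in each direction, so the counts of 1 give no share that stands clear of the background. Over the 43 genes the distance ran from −2.20 to 0.94 with a median of −0.13, where the median of all tested genes was −0.00324. It was below 0 in 28 of 43 (65.1%) and in 50.2% of all genes. All 3 HFD mice lay below all 6 others in 9 genes (20.9%, background 9.62%), namely Lamp1, Ctsa, Ctsb, Ctsl, Lgmn, Gusb, Ppt1, Atp6v0d1 and Atp6ap1. They lay above all 6 in 5 genes (11.6%, background 13.4%), namely Gaa, Ids, Naglu, Atp6v0a1 and Tfe3. With DESeq2 the calls were 3 lower and 2 higher, where 7.04% and 6.46% of all tested genes were called. Control and HFD+Mino replicates with the same number deviated together, a pairing seen in the counts only. A block chosen from these same counts gives FDRs that are not independent of that choice, here and below. With that number as a block in those groups the calls were 2 lower and 3 higher, where the block gave 5.40% lower and 7.76% higher of all tested genes. Atp6v0d1 joined the lower calls, and Gaa and Atp6v0a1 joined the higher calls. Without HFD+Mino replicate 3 they were 5 lower and 3 higher, with 7.23% and 6.21% of all genes. Without Control replicate 1 they were 1 lower and 0 higher, with 1.03% and 0.724% of all genes. Without HFD replicate 3 there were none, and of all genes 0.0168% were called lower and 0% higher.

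**Figure D2:**
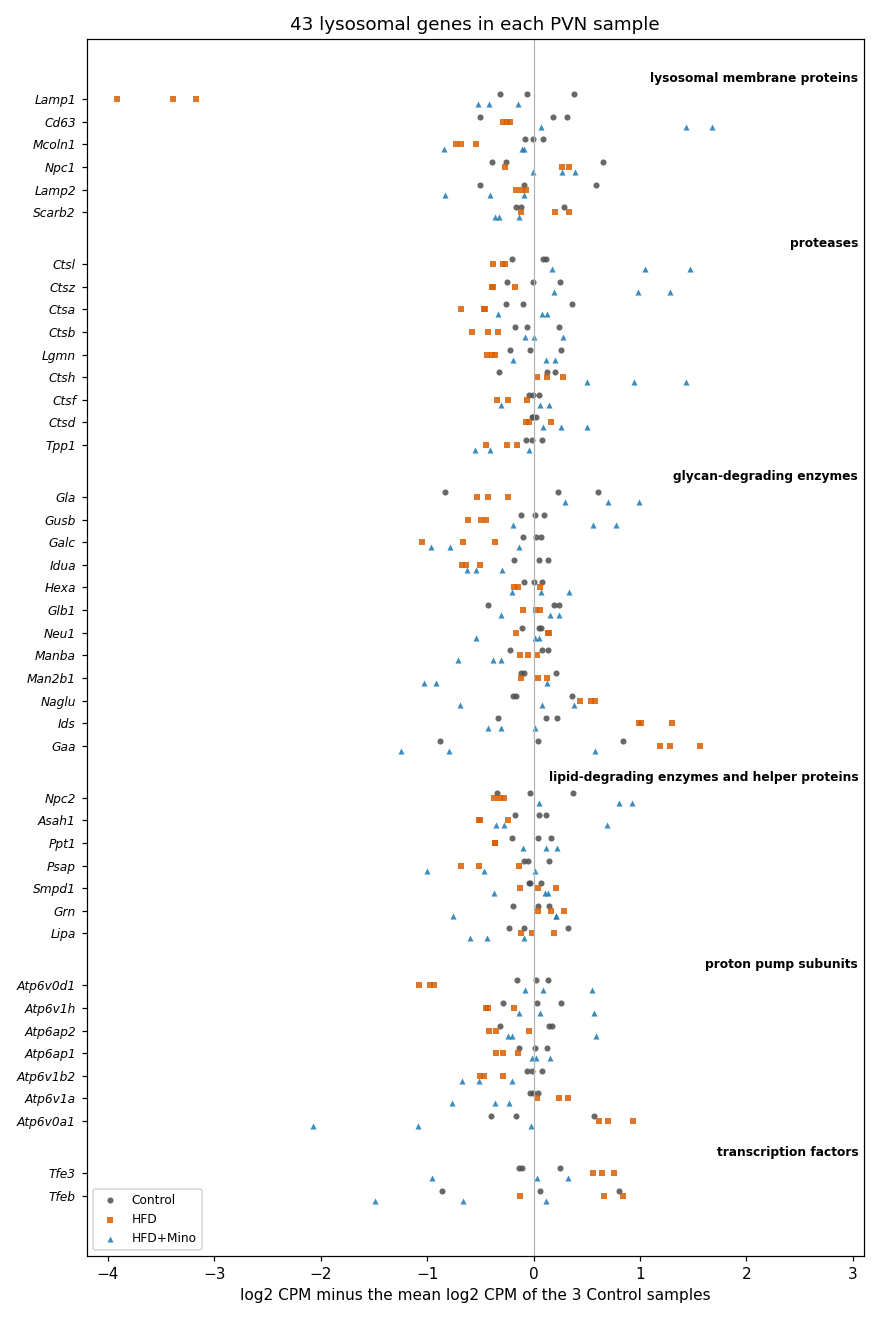
Level of each of the 43 lysosomal genes in each of the 9 mice, as log2 CPM minus the mean log2 CPM of the 3 Control mice (horizontal axis), grouped by role, with circles for Control, squares for HFD and triangles for HFD+Mino. The 3 HFD squares of Lamp1 stand far to the left of every other value, and those of Ids, Gaa and Atp6v0a1 lie to the right of the other 6 mice.

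Among the 6 membrane proteins, Lamp1 was lower in HFD and no other member was called. Lamp1 lies on chromosome 8 from 13159161 to 13175338 (GRCm38.p6, Entrez gene 16783). In Control mice it was at 1181, 866 and 726 CPM. In HFD mice it was at 59.9, 100.6 and 86.3 CPM, and in HFD+Mino mice at 631, 679 and 816 CPM. The highest HFD mouse stood far below the lowest of the other 6, and the Control and HFD+Mino mice overlapped. The means were 924 ± 234, 82.2 ± 20.6 and 709 ± 96.0 CPM (here and below ± is the SD over n = 3 mice), with a log2 distance of −2.20 (FDR 0.000499, edgeR). HFD was 11.2-fold lower than Control, a log2 fold change of −3.49 (SE 0.29, 95% interval −4.12 to −2.86, edgeR FDR 0.000158), and HFD+Mino was above HFD by 3.11 (SE 0.28, edgeR FDR 0.000385).

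The distance of Lamp1 was −2.13 without Control replicate 1 (edgeR FDR 0.000521). Without HFD replicate 3 it was −2.22 with an edgeR FDR of 0.0115, past the call's threshold, and in the other 8 left-out fits the call held. Of all genes tested without HFD replicate 3, 0.0168% were HFD-lower. Its exons share 249 nt with Grtp1 on the opposite strand, and whether strand was used in counting is not given in the sources used here. The GC-richest 100 nt of its longest transcript, starting at nt 157 of 2229 nt, held 87% G and C. Of the 1324 tested genes with at least 85% in such a window, 135 (10.2%) were HFD-lower, and Lamp1 was the only one of the 43 genes among the 1324. With the trend of fold change on that GC content taken out, the distance of Lamp1 was −2.02 (edgeR FDR 0.000502). That correction removes only the average trend over all genes, so the part of GC content in the value of Lamp1 was not tested.

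Mcoln1, which encodes the lysosomal calcium channel mucolipin 1, had means of 154 ± 9.37, 98.4 ± 6.89 and 125 ± 33.7 CPM in Control, HFD and HFD+Mino mice. Its HFD mice were below all Control mice but overlapped HFD+Mino, and its log2 fold change of −0.65 against Control missed the call (edgeR FDR 0.137). Lamp2, the close relative of Lamp1 that is needed for fusion with autophagosomes, differed by −0.19 between HFD and Control with a 95% interval of −0.82 to 0.45, an interval that does not reach the fold of Lamp1. Scarb2, the receptor that carries glucocerebrosidase to lysosomes, differed by 0.14 (interval −0.34 to 0.62). Npc1, which exports cholesterol from lysosomes, differed by 0.06 (interval −0.60 to 0.72). Cd63, a tetraspanin of late endosomes and exosomes, was at 519, 617 and 202 CPM in HFD+Mino against 157 to 165 CPM in HFD and 136 to 240 CPM in Control. It was named after its values were seen, because replicates 1 and 2 of HFD+Mino stood above all others and replicate 3 fell within the Control range.

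**Figure D3:**
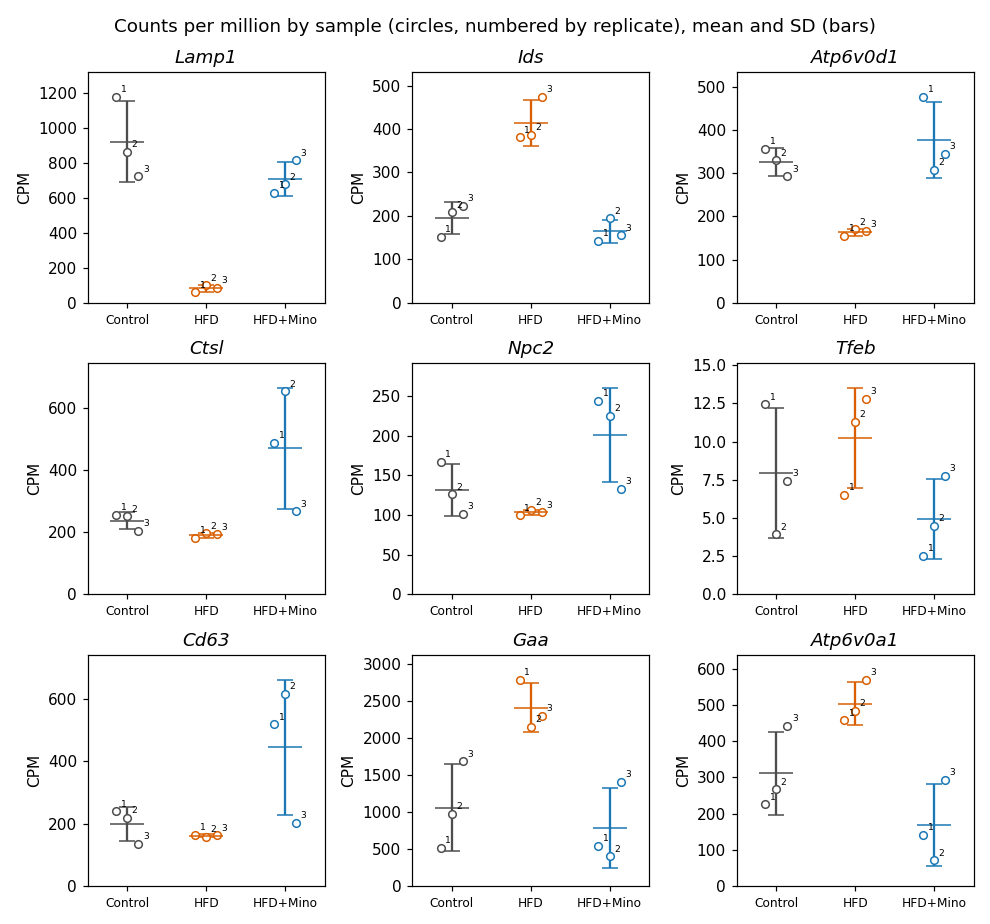
CPM of 9 lysosomal genes in each mouse (circles numbered by replicate), with the mean and SD of each group (bars, n = 3), on linear axes from 0. Lamp1 and Atp6v0d1 are lowest and Ids, Gaa and Atp6v0a1 highest in all 3 HFD mice, while Ctsl, Npc2 and Cd63 are highest in HFD+Mino replicates 1 and 2.

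The 9 proteases all had a distance below 0 in HFD, from −0.54 to −0.08 with a median of −0.28, and none was called. All 3 HFD mice lay below the other 6 in Ctsa, Ctsb, Ctsl and Lgmn. Ctsl, a cysteine cathepsin and the protease farthest from 0 (chromosome 13, 64361890 to 64370772), stood at 257, 252 and 205 CPM in Control mice. It was at 182, 196 and 194 CPM in HFD and at 489, 656 and 267 CPM in HFD+Mino. The HFD mice were close together just under the lowest Control mouse, and the HFD+Mino mice were all above the Control mice but far apart. The distance of −0.54 missed the call (edgeR FDR 0.0230), HFD+Mino was above HFD by 1.304 (SE 0.29, edgeR FDR 0.0131), and HFD differed from Control by −0.32 (interval −0.95 to 0.31). Without HFD+Mino replicate 3 the distance was −0.64 and passed the call (edgeR FDR 0.00107). Exons of Ctsl share 1742 nt with Gm47123 on the opposite strand and 395 nt with Gm49230 on the same strand.

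Ctsb, a cysteine cathepsin abundant in lysosomes, was at 1603 ± 241, 1170 ± 97.4 and 1676 ± 217 CPM in Control, HFD and HFD+Mino, and its log2 fold change of −0.45 against Control was not called (edgeR FDR 0.252). Ctsa, the carboxypeptidase that also protects the sialidase Neu1 and the galactosidase Glb1, was at 187 ± 43.5, 127 ± 10.96 and 180 ± 30.2 CPM in the same order, with a fold change of −0.56 (edgeR FDR 0.200). Lgmn, the asparaginyl endopeptidase that processes other cathepsins, stood at 253 ± 42.9, 191 ± 5.16 and 260 ± 36.4 CPM, with a fold change of −0.41 (edgeR FDR 0.291). In these genes the HFD mean was lower than both others by less than 1.5-fold. Ctsd, the main aspartyl protease of lysosomes, differed between HFD and Control by 0.02 (interval −0.41 to 0.46). Ctsf and Tpp1, a cysteine cathepsin and a tripeptidyl peptidase, differed by −0.21 and −0.28. The exopeptidases Ctsz and Ctsh were highest in HFD+Mino, where Ctsz was above HFD by 1.20 (edgeR FDR 0.0139) and Ctsh by 0.86 (edgeR FDR 0.0362).

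The 12 glycan-degrading enzymes split evenly, with 6 distances below 0 and a median of 0.02, and 1 of them, Ids, was higher in HFD. Ids encodes the sulfatase that starts the breakdown of heparan and dermatan sulfate, the enzyme lost in Hunter syndrome (chromosome X from 70343069 to 70385834, Entrez gene 15931). Control mice had 152, 208 and 223 CPM. HFD mice had 381, 387 and 475 CPM, and HFD+Mino mice had 142, 194 and 156 CPM. The lowest HFD mouse was well above the highest of the other 6, and Control and HFD+Mino overlapped. The distance was 0.81 (edgeR FDR 0.00858). HFD exceeded Control by 1.09 (SE 0.23, 95% interval 0.59 to 1.59), which was not called (edgeR FDR 0.0182), and HFD+Mino was below HFD by 1.33, a log2 fold change of −1.33 (SE 0.23, edgeR FDR 0.00620), which was called. The 3-way call of Ids held in 3 of 9 fits with a mouse left out. It was lost without Control replicate 1 (0.76, edgeR FDR 0.0103), Control replicate 2 (0.83, FDR 0.0259), HFD replicate 1 (0.85, FDR 0.0446), HFD replicate 2 (0.84, FDR 0.0501), HFD replicate 3 (0.73, FDR 0.0695) and HFD+Mino replicate 1 (0.78, FDR 0.0270), and with a trend on exon length (0.60, FDR 0.0193) or on GC content (0.66, FDR 0.0190) taken out. Over all tested genes the HFD-higher calls numbered 0, 1 and 0 without HFD replicates 1, 2 and 3.

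Gaa, the acid α-glucosidase that degrades glycogen and is lost in Pompe disease, had the largest distance above 0 of the 43 genes (0.94) and was not called (edgeR FDR 0.0609). It was at 513, 972 and 1684 CPM in Control. In HFD it was at 2784, 2143 and 2295 CPM, and in HFD+Mino at 544, 399 and 1405 CPM. All HFD mice were above the others, but the Control mice spread over a wide range. Its values by mouse, like those of Atp6v0a1, are given after they were seen. Gusb, β-glucuronidase, was below all others in HFD at 26.3 ± 1.53 CPM against 37.8 ± 2.86 in Control and 50.9 ± 16.1 in HFD+Mino. Idua, the iduronidase that acts after Ids in the same pathway, was at 43.8 ± 4.93, 28.8 ± 1.78 and 31.2 ± 3.70 CPM in Control, HFD and HFD+Mino. Its log2 fold change of −0.61 between HFD and Control missed the call (edgeR FDR 0.116), and its exons share 124 nt with Dgkq and 141 nt with Slc26a1 on the opposite strand. Naglu, which acts on heparan sulfate later in the pathway, had HFD mice above the other 6 at a mean of 17.9 ± 0.928 CPM, with a fold change of 0.49 (edgeR FDR 0.386).

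The remaining 7 enzymes of the glycan group showed no called difference between any pair of groups. Galc, the galactosylceramidase lost in Krabbe disease, and Gla, the α-galactosidase lost in Fabry disease, differed by −0.67 and −0.51 between HFD and Control, with intervals of −1.31 to −0.02 and −1.28 to 0.25. Between HFD+Mino and HFD, Galc differed by 0.08 and Gla by 1.08 (interval 0.31 to 1.86, edgeR FDR 0.0413). The other 5, the β-galactosidase Glb1, the hexosaminidase subunit Hexa, the mannosidases Man2b1 and Manba and the sialidase Neu1, had fold changes from −0.09 to 0.04 between HFD and Control. For Hexa the interval was −0.54 to 0.36.

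In the lipid group of 7 genes, 4 distances were below 0, the median was −0.14 and none was called. Npc2, the soluble protein that hands cholesterol to Npc1, was farthest from 0 (chromosome 12, 84754559 to 84773112). It was at 167, 126 and 102 CPM in Control. In HFD it was at 99.7, 107 and 104 CPM, and in HFD+Mino at 244, 225 and 133 CPM. HFD overlapped only the lowest Control mouse, and HFD+Mino replicates 1 and 2 stood above all others. The distance was −0.44 (edgeR FDR 0.0538), with HFD+Mino above HFD by 0.96 (SE 0.27, edgeR FDR 0.0252). Ppt1, the thioesterase that removes palmitate from proteins, was below all others in HFD at 227 ± 0.417 CPM against 294 ± 37.5 in Control and 310 ± 33.5 in HFD+Mino, a fold change of −0.37 against Control (edgeR FDR 0.307). Psap, the precursor of the saposins that present lipids to hydrolases, had a fold change of −0.43 (interval −1.03 to 0.17). Asah1, acid ceramidase, had one of −0.42 (interval −1.04 to 0.20). Smpd1, Lipa and Grn, acid sphingomyelinase, lysosomal acid lipase and progranulin, differed between HFD and Control by 0.05, 0.01 and 0.16.

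The 7 genes of the proton pump lay on both sides of 0, 5 of them below it, with a median distance of −0.19. Atp6v0d1, the d subunit that couples the membrane sector to the catalytic sector, lies on chromosome 8 from 105524461 to 105566064 (Entrez gene 11972). Control mice had 356, 330 and 292 CPM. HFD mice had 154, 170 and 165 CPM, and HFD+Mino mice had 477, 308 and 345 CPM. Every HFD mouse was below every other mouse, by a margin far wider than the spread of the HFD mice. HFD+Mino was above HFD by 1.21 (SE 0.22, 95% interval 0.73 to 1.69, edgeR FDR 0.00763), which was called. HFD was 2.00-fold below Control, a log2 fold change of −0.998 (SE 0.22), which missed the call (edgeR FDR 0.0231), as did the distance of −0.74 (edgeR FDR 0.0141). With the replicate number of Control and HFD+Mino as a block these became −0.997 (edgeR FDR 0.00277) and −0.73 (FDR 0.000971), both called.

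The call of Atp6v0d1 between HFD+Mino and HFD was lost without Control replicate 2 (1.19, edgeR FDR 0.0189), HFD replicate 1 (1.16, FDR 0.0390), HFD replicate 2 (1.24, FDR 0.0378), HFD replicate 3 (1.22, FDR 0.0476) or HFD+Mino replicate 1 (1.00, FDR 0.0274). It was also lost with the trend on exon length taken out (0.64, FDR 0.0404) and with only the HFD and HFD+Mino mice in the model (1.19, FDR 0.0148). Its exons make up 1793 nt, among the shortest of the 43 genes, whose median was 4715 nt.

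Atp6v0a1, the a1 subunit of the same membrane sector and the form typical of neurons, was at 226, 267 and 442 CPM in Control. In HFD it was at 458, 485 and 571 CPM, and in HFD+Mino at 141, 71.0 and 293 CPM. Its HFD mice were above all others, the reverse of Atp6v0d1. The distance of 0.76 was not called (edgeR FDR 0.0581), nor was HFD+Mino below HFD (log2 fold change −1.58, SE 0.44, edgeR FDR 0.0248). With the block in Control and HFD+Mino these became 0.84 (edgeR FDR 0.00172) and −1.78 (FDR 0.000692), both called.

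In the catalytic sector, Atp6v1a, the subunit that binds ATP, differed by 0.20 between HFD and Control (interval −0.25 to 0.65), and Atp6v1b2, its partner in the ring, by −0.42 (interval −0.86 to 0.03). The regulatory subunit Atp6v1h differed by −0.37. The accessory proteins Atp6ap1 and Atp6ap2, which help to assemble the pump, differed by −0.26 and −0.28.

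The 2 transcription factors were among the genes with the fewest counts for their length, and neither was called. Tfeb (chromosome 17, 47737037 to 47792416) had 12.4, 3.92 and 7.45 CPM in Control mice. In HFD mice it had 6.53, 11.3 and 12.8 CPM, and in HFD+Mino mice 2.53, 4.49 and 7.76 CPM. The groups overlapped, and the distance of 0.47 was not called (edgeR FDR 0.267). Tfe3 had means of 24.1 ± 3.75 and 37.7 ± 2.64 CPM in Control and HFD mice, and 24.5, 12.3 and 29.9 CPM in the HFD+Mino mice. All of its HFD mice lay above the other 6, with a distance of 0.47 (edgeR FDR 0.134). Both regulate lysosomal genes mainly by moving between cytoplasm and nucleus, which RNA levels do not show. Of the 12 genes with CACGTG in the promoter, 9 had a distance below 0 (median −0.21, 1 called), and of the 25 without it 13 did (median −0.08, 1 called). These medians were not compared by a test.

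Levels were also set side by side per length of exon, as CPM per kilobase of exon (RPKM). In Control the order was led by Psap (543 ± 48.3 RPKM), Ctsd (384 ± 5.03) and Lamp1 (346 ± 87.3), whose ranges from the mean by 1 SD separate Psap from the others but not Ctsd from Lamp1. Atp6ap1, Ctsb and Atp6ap2 followed at 272, 265 and 257 RPKM and did not differ beyond their spread. At the end were Tfe3 (2.61 RPKM), Tfeb (1.40) and Galc (1.08). The length used was that of all annotated exons of a gene merged. For Galc it was 14879 nt, against a longest transcript of 4439 nt, so its place in the order depends on that choice. In HFD, Gaa led with 503 ± 70.0 RPKM and Lamp1 was 20 in the order at 30.7 ± 7.72 RPKM. All of these are levels and not differences.

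The comparison of HFD with Control asks what the diet did in the nucleus. Of the 43 genes, Lamp1 alone was lower at an FDR below 0.01 and at least 1.5-fold, and none was higher. Among all tested genes 1.42% were lower and 0.317% higher. The median log2 fold change was −0.26 over the 43 genes and 0.00434 over all tested genes. At an unadjusted p below 0.05 the lower genes were Lamp1, Mcoln1, Ctsa, Galc, Idua and Atp6v0d1 and the higher ones Gaa and Ids, 6 lower against 9.22% of all tested genes and 2 higher against 11.3%. For 26 of the 43 genes (60.5%) the 95% interval lay wholly within 2-fold of Control in either direction, which was so for 31.4% of all tested genes. Interval width also depends on how many counts a gene has, and the 2 shares were not matched for counts. DESeq2 called 2 lower and 1 higher, with 3.63% and 3.21% of all tested genes. With the block in Control and HFD+Mino the calls were 2 lower (Lamp1 and Atp6v0d1) and 2 higher (Ids and Gaa), beside 2.87% and 3.35% of all genes. Without Control replicate 1 they were 1 lower and 0 higher, beside 0.943% and 0.0673% of all genes.

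**Figure D4:**
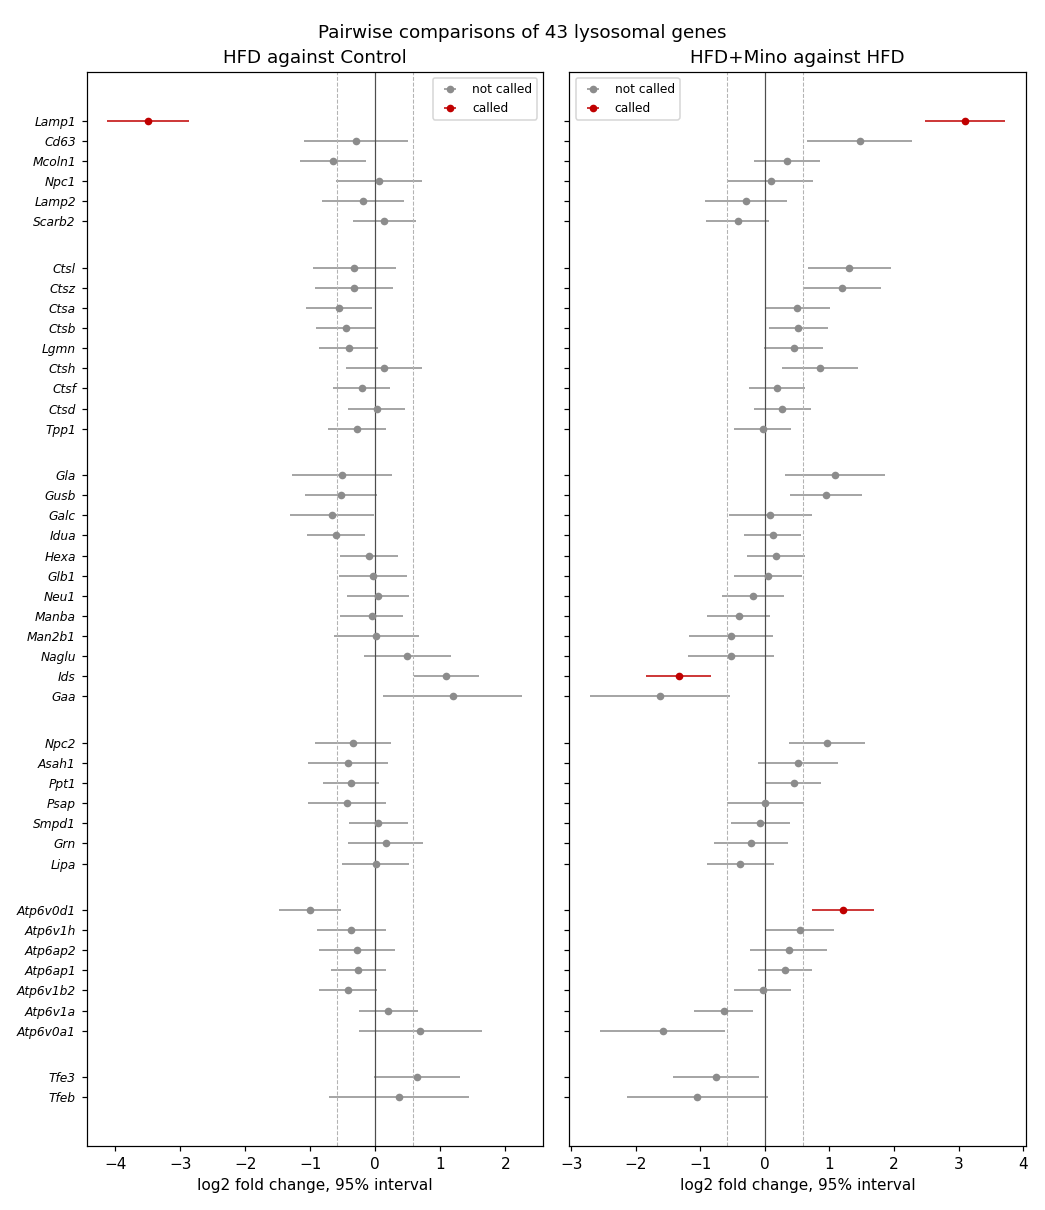
Log2 fold changes of the 43 lysosomal genes with 95% intervals (horizontal axes, edgeR) for HFD against Control (left) and HFD+Mino against HFD (right), red where called at an FDR below 0.01 and at least 1.5-fold, with dashed lines at 1.5-fold. Lamp1 is at −3.49 on the left and 3.11 on the right, and most other intervals cross or lie near 0.

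HFD+Mino against HFD asks what minocycline changed on the fat diet. Lamp1 and Atp6v0d1 were higher and Ids was lower, so 2 and 1 of 43 genes passed the call, where 1.98% and 2.16% of all tested genes did. The median log2 fold change was 0.12 over the 43 genes and 0.00886 over all tested genes. At an unadjusted p below 0.05, 18 genes differed (41.9%), 13 higher, where 21.6% of all tested genes were, and 5 lower, where 19.8% were. Both this comparison and the previous one use the same HFD mice, so a gene that is low in HFD appears as lower in one and higher in the other. With the block in Control and HFD+Mino the calls were 9 higher (Lamp1, Cd63, Ctsl, Ctsz, Ctsh, Gla, Gusb, Npc2 and Atp6v0d1) and 4 lower (Gaa, Ids, Atp6v0a1 and Atp6v1a), where 12.9% and 12.7% of all tested genes were called. DESeq2 called 7 higher and 3 lower, against 12.3% and 10.1% of all genes. Without HFD+Mino replicate 3 they were 8 higher and 4 lower, against 11.6% and 9.83%. Without Control replicate 1 the calls were again Lamp1 (3.11, edgeR FDR 0.000222), Atp6v0d1 (1.21, FDR 0.00763) and Ids (−1.33, FDR 0.00486). Without HFD+Mino replicate 1 or Control replicate 2, or any 1 of the HFD mice, Lamp1 was the only call. In those fits 0.145% to 0.503% of all tested genes were higher.

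HFD+Mino against Control asks how far the treated mice were from mice on chow. None of the 43 genes was called by edgeR or by DESeq2. Among all tested genes the edgeR calls were 0% in each direction, and DESeq2 called 1.18% higher and 0.386% lower. At an unadjusted p below 0.05, Cd63, Ctsl, Ctsz, Ctsh and Npc2 were higher and Idua and Atp6v1b2 lower, 5 and 2 of 43 genes, where 12.7% of all tested genes were higher and 8.63% lower. The log2 differences of Cd63 and Ctsl were 1.17 (SE 0.37, edgeR FDR 0.139) and 0.98 (SE 0.29, edgeR FDR 0.133). For Lamp1 the difference was −0.38 with a 95% interval of −0.96 to 0.19, and for Ids −0.25 with an interval of −0.74 to 0.25. For 30 of the 43 genes (69.8%) the interval lay within 2-fold, against 31.5% of all tested genes, again not matched for counts. With the block in Control and HFD+Mino 1 gene, Cd63, was higher (1.06, edgeR FDR 0.00846), as were 2.68% of all tested genes. Without HFD+Mino replicate 3, 4 genes were higher, Cd63 at 1.52 (FDR 0.00468), Ctsl at 1.26 (FDR 0.00470), Ctsz at 1.121 (FDR 0.00694) and Ctsh, where 4.03% of all tested genes were higher.

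Microglia, which are rich in cathepsins and Cd63, were followed with 12 marker genes, all tested, none called and none at 0 in any library. Their summed level was 445, 339 and 278 CPM in the Control mice, 387, 392 and 389 CPM in the HFD mice and 606, 464 and 456 CPM in the treated mice. The sums were highest in HFD+Mino, where Ctsl, Ctsz, Ctsh, Npc2 and Cd63 were also highest. Within HFD+Mino, replicate 3 was lowest in the sum and in those genes. Its sum of 456 CPM was close to the 464 of replicate 2, however. Ctsl was at 267 CPM in replicate 3 against 656 in replicate 2, and Cd63 at 202 against 617. Single markers, chosen after their values were seen, differed in direction, Tyrobp standing at 109, 82.0 and 38.4 CPM in HFD+Mino against 18.7 to 46.1 in Control, and Csf1r at 36.8, 30.3 and 86.7 against 59.1 to 70.8. PVN neuron markers were likewise highest in HFD+Mino replicates 1 and 2. Within HFD+Mino the microglial sum was highest in replicate 1, whereas Ctsl, Ctsh and Cd63 were highest in replicate 2. Markers of ependyma and choroid plexus, the cells that line the ventricle, summed to 19.8, 80.3 and 96.7 CPM in Control mice. The sums were 181, 131 and 102 CPM in HFD mice, and 352, 394 and 198 CPM in HFD+Mino mice, all above the other 6, with the highest in replicate 2. The part of these cell types in the values was not tested. Astrocyte markers summed to 1912 to 2049 CPM in the Control mice, 2484 to 2700 CPM in the HFD mice and 1483 to 1808 CPM in the treated mice, so that Ids, Gaa and Atp6v0a1 were highest in the group where this sum was highest, and its part in their values was not tested. Neuron markers summed to 6318 to 9109, 5289 to 7761 and 5680 to 6766 CPM in the same groups.

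**Figure D5:**
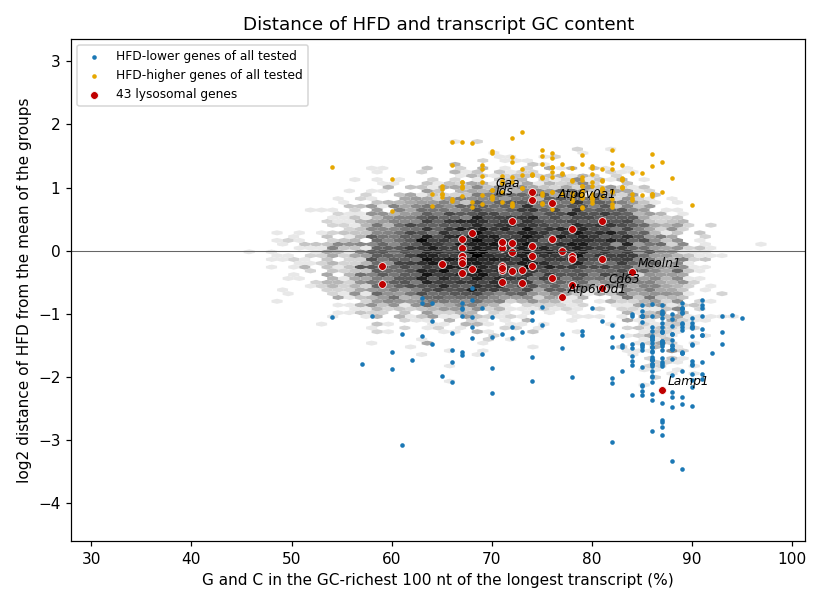
Distance of HFD in log2 units from the average of the 3 groups (vertical axis) against the percentage of G and C in the GC-richest 100 nt of the longest transcript (horizontal axis), for all tested genes (grey, darker where more genes lie), HFD-lower genes (blue), HFD-higher genes (yellow) and the 43 lysosomal genes (red). Lamp1, at 87% and −2.20, lies among the HFD-lower genes at the right, and the other 42 lysosomal genes lie at 84% or below.

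The 43 genes had the same median GC content in that window as all tested genes (72%), where the HFD-lower genes of the whole table had 86%. Over the 43 genes, Spearman's rho between the distance and this GC content was −0.0197 (n = 43 genes, which share the same 9 libraries), against 0.0770 over 16850 genes. With exon length rho was 0.303 over the 43 genes and 0.449 over the 16850. Longer genes thus tended to be higher in HFD in both sets. The HFD-higher genes of the whole table had a median of 7892.5 nt and Ids had 5101 nt of exon.

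A further list of 74 lysosomal genes (pump subunits, enzymes, transporters, sorting factors and transcription factors), of which 73 were tested, was counted in the same way. None was called in the 3-way test of edgeR in either direction, where DESeq2 called 5 lower and 5 higher, beside its 7.04% and 6.46% of all tested genes. At an unadjusted p below 0.05, 14 (19.2%) differed for HFD against Control, 33 (45.2%) for HFD+Mino against HFD and 17 (23.3%) for HFD+Mino against Control. The shares of all tested genes were 20.5%, 41.3% and 21.3%. The median distance was −0.07. Of all tested genes, 50.2% had a distance below 0. Of the 25 further enzymes and activators, 15 had a distance below 0, with a median of −0.06. Of the 19 membrane and transport proteins, 11 did, with a median of −0.07. Of the 12 other pump subunits, 11 had a distance below 0, with a median of −0.43, and the median difference of HFD+Mino from HFD was 0.91. Of the 16 sorting genes, which carry new enzymes to lysosomes, 6 had a distance below 0, with a median of 0.08, and 13 were lower in HFD+Mino than in HFD, with a median difference of −0.41. Of the 17344 tested genes, 8613 were lower in HFD+Mino than in HFD. By the call, 1 of the 73 further genes was higher in HFD+Mino than in HFD and 1 was lower, where 1.98% and 2.16% of all tested genes were. Atp6v0b, a subunit of the proton-carrying ring, was at 424 to 446 CPM in HFD and at 1672, 1117 and 730 CPM in HFD+Mino, and was called there at 1.42 (edgeR FDR 0.00950). Abcb9, a peptide transporter of the lysosomal membrane, was lower in HFD+Mino than in HFD with a log2 fold change of −1.58 (edgeR FDR 0.00597). Without Control replicate 1 these were 1.42 (edgeR FDR 0.00891) and −1.58 (FDR 0.00604). With each mouse left out in turn, Atp6v0b was called in 2 of 9 fits and Abcb9 in 3. Atp6v0b was, like Ctsl and Cd63, highest in HFD+Mino replicates 1 and 2, and so were Atp6v1f, Atp6v1e1 and Atp6v1g1, pump subunits named after their values were seen.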

How the data were processed

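RNA from PVN punches of 9 mice was amplified with a full-length cDNA kit (SMARTer v4) and made into libraries with Nextera XT. Per the submitters' processing notes, the authors aligned reads with HISAT2 to mm10 (GRCm38) and counted them per gene with featureCounts. The deposited values are raw counts. Strand and multimapping settings are not given in the sources used here. Rows without a symbol (958 genes) held 0.0785 to 0.0932% of counts and could not match a member.

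Genes were filtered with filterByExpr, scaled by TMM and fitted with edgeR 4.0.16 (R 4.3.3) using glmQLFit and glmQLFTest in 1 model of all 9 samples, with Benjamini-Hochberg FDR over 17344 genes. The 3-way test has 2 degrees of freedom. SEs are the absolute log2 fold change over the square root of F, and 95% intervals are unadjusted. DESeq2 1.42.0, other filters, scalings, trend corrections on length or GC, and leaving out each sample were alternatives. P-values weigh the difference between groups against the spread between the libraries of a group. Differences between mice, dissection and library making cannot be told apart in that spread. On simulated counts with 200 of 17344 genes changed in HFD, the 3-way test called 53 genes, of which 51 were among 100 changed 4-fold, 1 among 100 changed 2-fold and 1 was unchanged. It called 0 genes in a run with no change. Thus changes near 2-fold were mostly out of reach in that simulation. The data gave more calls (210 HFD-lower and 159 HFD-higher genes), so this limit may not carry over to them. Ids was called in the 3-way test with HFD 2.13-fold above Control.

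Values in every sample are given for called members and, in a role without one, for the member farthest from 0. Gaa, Atp6v0a1, Cd63, Tyrobp and Csf1r were given by sample after their values were seen, and other members by mean and fold. The members and lists were chosen with earlier results of these data known. HFD replicates are numbered as in the sample titles. Same-numbered Control and HFD+Mino samples deviated together (r = 0.217, 0.270 and 0.432), a pairing seen in the counts and stated nowhere. Differently numbered samples of these groups had r from −0.263 to 0.0824. HFD replicate 1, however, reached 0.207 with Control replicate 2 and 0.216 with HFD+Mino replicate 2. Values near 0.217 thus also arose between unlike numbers. The block was chosen from these same counts, so its FDRs are not independent of that choice. HFD samples did not pair with Control or HFD+Mino by title number (r from −0.232 to −0.00629). The count table numbers the HFD mice 3 to 5. By that number only HFD replicate 1 has partners, Control replicate 3 (r = 0.101) and HFD+Mino replicate 3 (r = −0.0481), and the block in all 9 samples rests on the titles. Positions and promoters are from RefSeq on GRCm38.p6, exon lengths and transcripts from GENCODE.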

Additional observations from a re-analysis of the deposited data

How the results depend on the processing

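The counts of called genes are given in 1 order throughout, for the 43 genes as HFD-lower and HFD-higher in the 3-way test, then lower and higher for HFD against Control, then lower and higher for HFD+Mino against HFD, and last HFD-lower and HFD-higher for the 74 further lysosomal genes. As reported they were 1 and 1, 1 and 0, 1 and 2, and 0 and 0. DESeq2 gave 3 and 2, 2 and 1, 3 and 7, and 5 and 5. The likelihood ratio test of edgeR gave 3 and 1, 2 and 1, 3 and 7, and 4 and 4. Without the filter on low counts they were 3 and 1, 1 and 0, 2 and 5, and 2 and 3. An FDR below 0.05 gave 3 and 1, 2 and 1, 4 and 9, and 4 and 6. With the trend on exon length taken out they were 1 and 0, 1 and 0, 0 and 2, and 0 and 0, and with the trend on GC content 2 and 0, 1 and 0, 0 and 4, and 0 and 0. With only the 6 samples compared in the model, HFD against Control gave 2 lower and 0 higher and HFD+Mino against HFD gave 1 lower and 1 higher. The shares of all tested genes there were 2.53% and 1.14%, and 1.54% and 0.89%. RLE size factors, a mean count of at least 50, no fold threshold, and leaving out Rn45s and the mitochondrial genome gave the reported counts. In all tested genes, the 3-way test called 1.21% lower and 0.917% higher as reported, 6.65% and 6.23% by the likelihood ratio test, 3.00% and 2.19% without the filter, 6.65% and 6.37% at an FDR below 0.05, 1.85% and 0.334% with the length trend out, and 1.27% and 0.934% with the GC trend out. For HFD against Control the likelihood ratio test called 3.19% lower and 2.38% higher of all genes, and no filter 1.47% and 0.456%. An FDR below 0.05 gave 3.21% and 2.57%, the length trend out 2.25% and 0.294%, and the GC trend out 1.21% and 0.502%. For HFD+Mino against HFD the shares, in the same order, were 8.8% and 10.3%, 3.16% and 4.45%, 12.9% and 14.6%, 0.559% and 2.64%, and 2.04% and 3.37%.

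With the replicate block in all 9 samples, pairing HFD as well, the counts were 1 and 1, 1 and 0, 2 and 2, and 0 and 1. With the replicate block in Control and HFD+Mino alone they were 2 and 3, 2 and 2, 4 and 9, and 3 and 5, and 1 gene was higher in HFD+Mino than in Control. The 3-way calls in all genes were 1.29% and 1.52% with the first block and 5.40% and 7.76% with the second. For HFD against Control the first block gave 1.3% and 0.334% of all genes, and for HFD+Mino against HFD 4.62% and 3.27%. The other settings that kept all mice called none of the 43 genes in HFD+Mino against Control.

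With each mouse left out in turn, the 43 genes gave 0 to 5 HFD-lower and 0 to 3 HFD-higher calls, 1 lower and 0 higher for HFD against Control, 0 to 4 lower and 1 to 8 higher for HFD+Mino against HFD, and 0 lower and 0 to 4 higher for HFD+Mino against Control. The further genes gave 0 to 7 HFD-lower and 0 to 3 HFD-higher. The 0 HFD-lower came without HFD replicate 3, and the highest counts without HFD+Mino replicate 3. The cause was not tested. In all tested genes the 3-way calls of these fits ran from 0.0168% to 7.23% lower and from 0% to 6.21% higher. Those for HFD against Control ran from 0.312% to 2.2% lower and 0.0222% to 0.88% higher. Those for HFD+Mino against HFD ran from 0.0168% to 9.83% lower and 0.145% to 11.6% higher. For HFD+Mino against Control they ran from 0% to 2.25% lower and 0% to 4.03% higher. The median distance of the 43 genes ran from −0.23 to −0.10 over all settings. The fewest counts of any of the 43 genes in a library were 74, in Tfeb, whose interval against Control (−0.71 to 1.44) was among the widest.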
